A study of Mus musculus with 4 samples.

Results

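Defensins are small antimicrobial peptides whose genes lie in clusters. The 83 defensin genes described here are all annotated genes on chromosomes 1 to 19 whose symbols start with Defa or Defb, out of 49550 annotated genes on chromosomes 1 to 19 and X. They comprise 40 alpha-defensin genes (Defa) and 43 beta-defensin genes (Defb), and 12 of them are annotated as pseudogenes. The cells were germline stem (GS) cells, cultures of mouse spermatogonial stem cells, that had grown for roughly 60 months (60M-GS) or roughly 5 months (5M-GS). Both culture ages came from wild-type testis of Green mice, labelled C57BL/6 Tg14(act-EGFP)OsbY01 on a DBA/2 background, and both were kept in the same medium with FGF2, GDNF and 1% serum, so the transgene is shared. DNA methylation was read by bisulfite sequencing of the whole genome with post-bisulfite adaptor tagging (PBAT), with 2 replicates pooled into 1 table for each age. How many separate cultures stand behind each age is not given in the sources used here.

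Alpha-defensins of the mouse, also called cryptdins, are made by Paneth cells of the small intestine as precursors that the protease Mmp7 cuts into active peptides. Beta-defensins are made by epithelia. Many of them are expressed in the epididymis and elsewhere in the male reproductive tract, where some coat sperm. CpG methylation in mammals is high over most of the genome and typically low at active CpG-rich promoters.

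The methylation level of a gene gives how many percent of its calls were methylated, counted on CpGs that had 5 or more calls in each table, over the gene span with 2 kb on each side. The 60M-GS table listed 471693518 calls (19341319 CpGs, median 22 calls each), and that of 5M-GS listed 468121185 (19371838 CpGs, median 21). With 1 pooled table per age there is no spread between replicates. Fisher's exact test (two-sided) therefore compares the calls of the pooled libraries and not culture ages as such. Its p-values were adjusted by Benjamini-Hochberg over all genes, and a gene is said to have gained or lost methylation when its adjusted p is under 0.05 and the difference reaches 20 percentage points. Differences are 60M-GS minus 5M-GS, and 95% intervals cover counting error only. In pooled cells, a partial level cannot tell fewer methylated cells from fewer methylated alleles per cell. Whether strain differences in sequence affect the calls at single CpGs was not tested. The germ cell label was checked at annotated 5' ends. The windows of 6 germ cell genes (Ddx4, Dazl, Mael, Uchl1, Gfra1, Lin28a) were between 0.365% and 4.90% methylated in 60M-GS against between 0.272% and 5.77% in 5M-GS. Dmrt1, Zbtb16 and Ret of the germ cell list gave no value. Low windows are common, with medians over all windows of 15.4% in 60M-GS against 12.3% in 5M-GS, so these values alone say little on cell type. The maternally methylated imprints Snrpn, Peg3 and Mest were at most 1.10% in 60M-GS against at most 1.90% in 5M-GS. Low levels in both ages did not hold for every imprinted gene. The imprinted retrogene Mcts2, not among the listed imprints, stood at 89.0% in 60M-GS against 35.2% in 5M-GS over its span with flanks. The paternally methylated imprints, read in stretches upstream of Meg3 and Rasgrf1, lay at 92.1% in 60M-GS against between 90.9% and 93.5% in 5M-GS. Peg10 and H19 of the imprint lists gave no value. Of the somatic testis list, Acta2 alone had a window, at 7.54% in 60M-GS against 8.42% in 5M-GS, so somatic cells were not tested by it.

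The defensin genes form 5 clusters. Chromosome 1 holds 3 beta-defensin genes, chromosome 2 holds 11, and chromosome 14 holds 5. On chromosome 8 a proximal cluster holds 14 beta-defensin genes and 4 alpha-defensin pseudogenes (chr8:18974914-19497775). A distal cluster on the same chromosome holds 36 alpha-defensin genes next to 10 beta-defensin genes (chr8:20892667-21948622). The sequences below run from 250 bases before to 50 bases after the annotated start, from RefSeq on GRCm38.p6, with CpGs in capitals. They are shown because the start of Defb36 (chr2:152604077-152604376, plus strand) changed most, the start of Defb29 (chr2:152539992-152540291, minus strand) had the lowest level of the tested windows, and the starts of Defa21 (chr8:21025295-21025594, plus strand) and Defa2 (chr8:21378267-21378566, plus strand) stand for the alpha-defensin starts, which could not be compared.
Defb36: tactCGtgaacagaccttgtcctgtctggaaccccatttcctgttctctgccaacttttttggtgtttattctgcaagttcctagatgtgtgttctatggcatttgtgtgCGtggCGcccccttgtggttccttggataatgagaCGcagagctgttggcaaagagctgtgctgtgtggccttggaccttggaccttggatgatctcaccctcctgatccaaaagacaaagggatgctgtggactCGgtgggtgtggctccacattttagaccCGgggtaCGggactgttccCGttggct
Defb29: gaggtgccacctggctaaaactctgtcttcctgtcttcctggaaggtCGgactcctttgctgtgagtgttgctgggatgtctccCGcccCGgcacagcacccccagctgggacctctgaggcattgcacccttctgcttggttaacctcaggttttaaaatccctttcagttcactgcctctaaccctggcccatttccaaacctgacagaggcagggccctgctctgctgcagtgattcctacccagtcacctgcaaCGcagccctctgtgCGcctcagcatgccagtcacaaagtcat
Defa21: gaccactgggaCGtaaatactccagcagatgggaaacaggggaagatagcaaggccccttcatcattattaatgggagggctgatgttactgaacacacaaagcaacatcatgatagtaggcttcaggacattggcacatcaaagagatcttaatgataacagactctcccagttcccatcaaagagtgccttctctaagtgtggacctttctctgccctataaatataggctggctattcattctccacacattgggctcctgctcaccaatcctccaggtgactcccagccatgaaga
Defa2: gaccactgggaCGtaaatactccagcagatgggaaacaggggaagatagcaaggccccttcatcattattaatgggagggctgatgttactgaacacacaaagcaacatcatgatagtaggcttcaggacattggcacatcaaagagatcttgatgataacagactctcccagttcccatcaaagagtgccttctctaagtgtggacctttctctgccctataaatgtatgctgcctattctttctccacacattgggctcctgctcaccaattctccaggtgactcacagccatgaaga

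The Defb36 stretch holds 8 CpGs and that of Defb29 holds 5. The stretches of Defa21 and Defa2 hold 1 CpG each and match at 293 of their 300 bases. The stretch of Defa20 is identical to that of Defa2, and the stretch of Defa22 to that of Defa21. Among the 16 alpha-defensin genes with such a sequence, 5 pairs were identical, and 12 of the 16 genes had a partner at 95% identity or more. Among the 29 beta-defensin genes the closest pair reached 51% identity. The 16 alpha-defensin stretches hold 17 CpGs, of which 1 had a call in both tables and 0 had the required 5 calls. The beta-defensin stretches hold 77 CpGs, of which 71 (92.2%) could be used. Over all annotated promoters, 90.9% of 407620 CpGs could be used.

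The gap at the alpha-defensins extended over their whole spans. They held 238 usable CpGs in 200.8 kb, or 1.19 per kb, whereas the beta-defensins held 2479 in 396.9 kb, or 6.25 per kb. Of the 40 alpha-defensin genes, 14 had no usable CpG, 5 (Defa31, Defa-ps6, Defa3, Defa-ps17 and Defa28) had 1 to 3, and 21 had the 4 or more needed for a test. All 43 beta-defensin genes were tested. Defa20, a cryptdin gene, was among those with no usable CpG, so neither age has a level for it. The part that CpG content and near-identical copies have in this gap was not tested. Levels of alpha-defensin genes with a near-identical copy are uncertain, since reads could be placed on either copy.

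**Figure D1:**
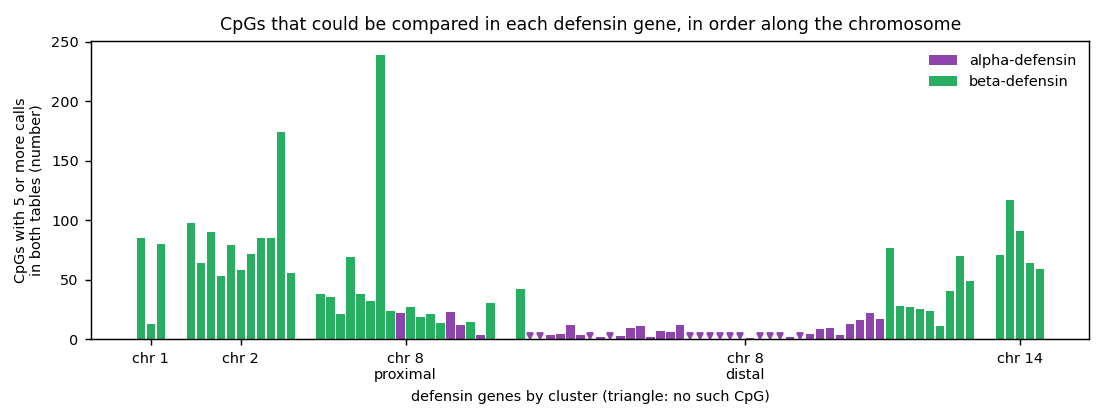
Number of CpGs with 5 or more calls in both tables (y axis) for each of the 83 defensin genes in order along each cluster (x axis), with alpha-defensins in purple, beta-defensins in green and a triangle for no such CpG. The 14 genes without one are all alpha-defensins of the distal chromosome 8 cluster, while the most covered gene, Defb14, had 239.

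Most defensin genes were highly methylated in both culture ages. Of the 64 tested genes, 46 were above 75% in both tables, and their median level was 83.0% in 60M-GS against 82.3% in 5M-GS. Of all 47815 tested genes, 22176 were above 75% in both tables, with medians of 77.2% in 60M-GS against 74.1% in 5M-GS. The difference was under 5 points in either direction for 52 of the 64, and for 37800 of all 47815 tested genes. Its median was 0.29 points, against 0.28 points over all 47815 tested genes. One defensin gene gained methylation and 0 lost it, against backgrounds of 4.35% and 0.0502% over all tested genes. Without chromosome X, which holds none of these genes, the backgrounds were 3.88% and 0.0484%. At an adjusted p under 0.05 with no minimum difference, 6 defensin genes were higher (9.4%) and 7 lower (10.9%) in 60M-GS, against backgrounds of 28.1% and 13.2%. These shares depend on the number of calls. The median number of usable CpGs was 19 over the 83 defensin genes against 110 over all annotated genes. In a stricter setting the calls of a span were divided by its number of CpGs, as if each read covered all CpGs of the span. The adjusted exact p of each of the 13 genes that were higher or lower was then 1. So few calls are left per span in that setting, where 0.105% of all genes gained, that it can hardly call differences of this size. The median difference was -0.26 points over the 21 tested alpha-defensins and 0.49 points over the 43 beta-defensins. Over joined spans, alpha-defensins lay at 78.1% in 60M-GS against 76.7% in 5M-GS, which differ by 1.43 points (95% interval -0.157 to 3.03). Beta-defensins lay at 78.9% in 60M-GS against 77.4% in 5M-GS, which differ by 1.53 points (1.07 to 1.99). The difference between the classes was not tested, since genes of a cluster are not replicates.

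**Figure D2:**
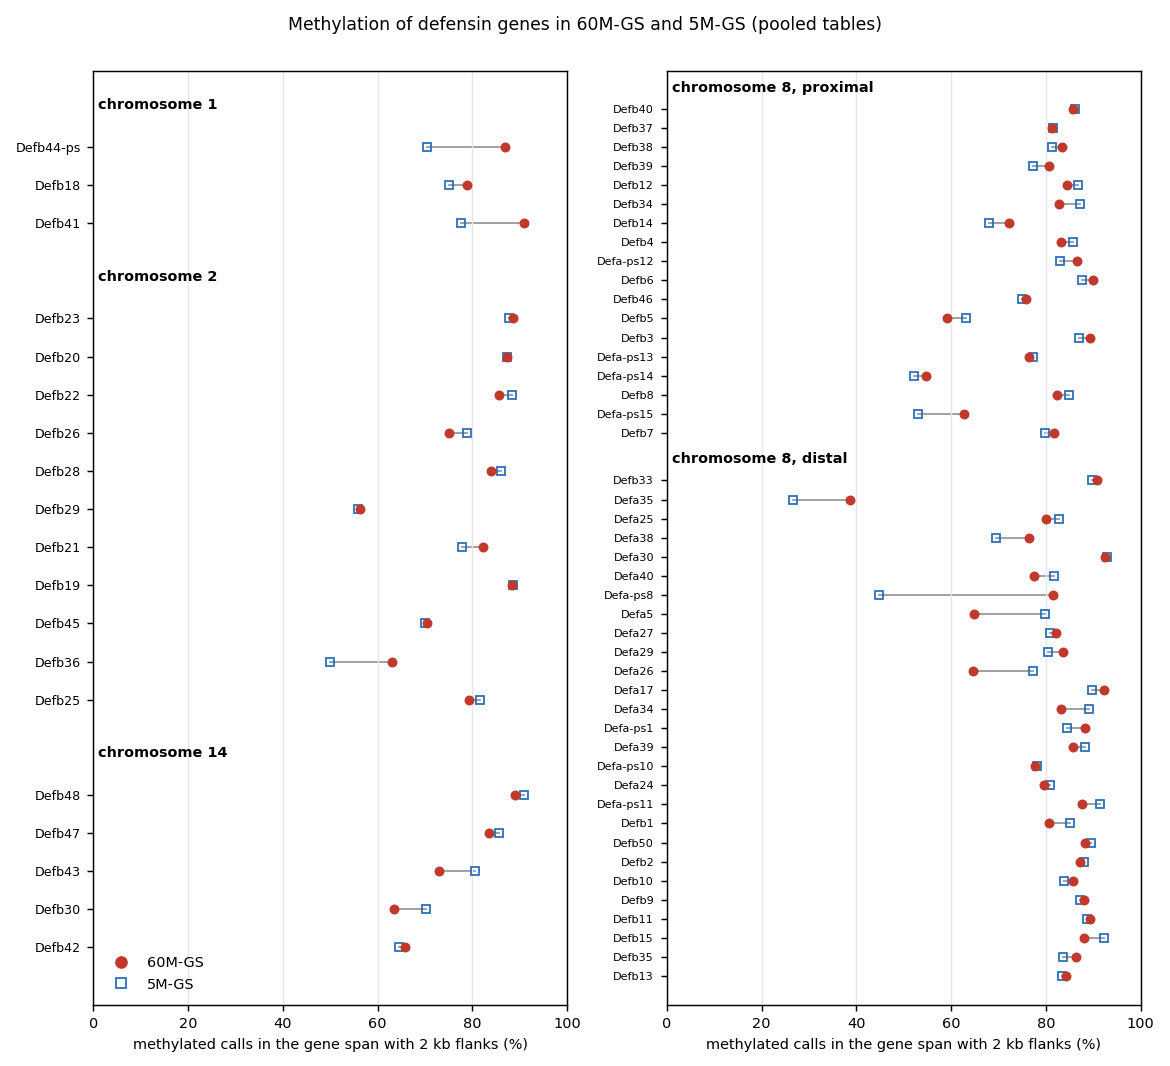
Methylation level (x axis, percent of methylated calls) of the 64 tested defensin genes by cluster, with 60M-GS as filled red circles and 5M-GS as open blue squares, each from 1 pooled table. Most pairs lie close together above 75%, and the widest gap is that of Defa-ps8, at 81.6% in 60M-GS against 44.8% in 5M-GS.

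Clusters differed more than classes. The 3 chromosome 1 genes together stood at 88.0% in 60M-GS against 74.0% in 5M-GS, which differ by 13.99 points (12.2 to 15.8). The chromosome 2 genes stood at 76.8% in 60M-GS against 74.0% in 5M-GS, 2.73 points higher (1.97 to 3.50). The proximal chromosome 8 genes stood at 77.8% in 60M-GS against 76.2% in 5M-GS, 1.64 points higher (0.706 to 2.57). In the distal chromosome 8 cluster the level was 83.8% in 60M-GS against 83.9% in 5M-GS, with a difference of -0.02 points (-0.912 to 0.873). Chromosome 14 went the other way, with 75.8% in 60M-GS against 79.5% in 5M-GS, which differ by -3.73 points (-4.85 to -2.60). Intervals of chromosome 1 and chromosome 14 overlap with no other cluster, but they cover counting error only and hold no spread between replicates. The difference between clusters was not tested. With 5 kb flanks the chromosome 14 difference shrank to -0.904 points.

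On chromosome 1 both larger genes were more methylated in 60M-GS, though under the 20-point threshold. Defb44-ps, a transcribed pseudogene at chr1:18210053-18223564, had 87.0% of 1866 calls methylated in 60M-GS against 70.4% of 1590 in 5M-GS over 85 CpGs. Its difference was 16.5 points (13.8 to 19.2, adjusted exact p = 8.64e-32). Without flanks it was 20.4 points, which passes the threshold. Defb41, a gene of the epididymal epithelium at chr1:18250978-18265138, had 91.0% of 1482 calls in 60M-GS against 77.5% of 1550 in 5M-GS, 13.4 points higher (10.9 to 15.9, adjusted exact p = 2.39e-23). Defb18, with 13 CpGs, stood at 78.8% in 60M-GS against 75% in 5M-GS, a difference that missed the test (adjusted exact p = 0.476). In 1 kb tiles, tested the same way with adjustment over all tiles, 10 of 112 tiles of the cluster with 100 kb on each side gained methylation (8.93%) and 0 lost it. The background over 1689849 tiles was 3.48% gained and 0.475% lost. With divided calls 1 of the 10 was still called, the one outside genes described below, and none in Defb44-ps or Defb41. Of the 10, 3 lay side by side inside Defb44-ps, between 83.3% and 90.0% in 60M-GS against between 53.7% and 60.1% in 5M-GS. The middle one (chr1:18214001-18215000) was at 90.0% in 60M-GS against 53.7% in 5M-GS. A further 3 lay in Defb41, with 1 of them overlapping the neighbour Gm17837 as well. The largest gain was outside any annotated gene, 57863 bp from Defb41 (chr1:18323001-18324000, 14 CpGs), at 74.6% of 335 calls in 60M-GS against 6.98% of 301 in 5M-GS. The third-largest, with 4 CpGs in Crisp4 (chr1:18121001-18122000), was at 76.4% in 60M-GS against 42.0% in 5M-GS. Crisp4 encodes a cysteine-rich secretory protein of the epididymis.

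On chromosome 2 the largest difference was at Defb36. Over its whole span with flanks (gene chr2:152604327-152612729, 174 CpGs) this beta-defensin gene had 63.0% in 60M-GS against 50.01% in 5M-GS, 12.99 points higher (11.0 to 14.9, adjusted exact p = 5.36e-37), which is under the threshold of 20. Its 5' window, from 1000 bp before to 500 bp after the start, had 88.3% of 1062 calls methylated in 60M-GS against 23.0% of 1231 in 5M-GS over 36 CpGs. This gain of 65.3 points (62.1 to 68.2, adjusted exact p = 1.74e-232) also passed when the calls were divided by the number of CpGs (adjusted exact p = 0.000104). The tile at the start (chr2:152604001-152605000, 29 CpGs) was at 87.8% of 850 calls in 60M-GS against 10.7% of 1001 in 5M-GS. Of the 36 CpGs of the window, 33 were higher in 60M-GS. In 60M-GS 0 of them were below 20%, against 25 in 5M-GS. At the CpG 5 bp before the start, capitalised in the sequence above, 23 of 37 calls were methylated in 60M-GS against 3 of 45 in 5M-GS. At the CpG 135 bp before it, 42 of 44 calls were methylated in 60M-GS against 4 of 38 in 5M-GS.

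The rise at Defb36 was bounded on both sides. From -3000 to -1001 bp, relative to the start, the level was 91.5% in 60M-GS against 89.1% in 5M-GS. From 501 to 1500 bp inside the gene it was 87.9% in 60M-GS against 87.8% in 5M-GS. Farther in, from 1501 to 2500 bp, the order turned round, with 54.8% in 60M-GS against 85.3% in 5M-GS, and 0 of its 11 CpGs were higher in 60M-GS. These stretches were laid out after the values had been seen and carry no test. The tile there (chr2:152606001-152607000, 12 CpGs) did lose methylation, at 59.1% of 325 calls in 60M-GS against 86.5% of 407 in 5M-GS (adjusted exact p = 2.30e-15). From 3501 bp to the gene's end at 8402 bp the level was 44.9% in 60M-GS against 42.97% in 5M-GS, with 23 of 54 CpGs below 20% in each age.

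**Figure D3:**
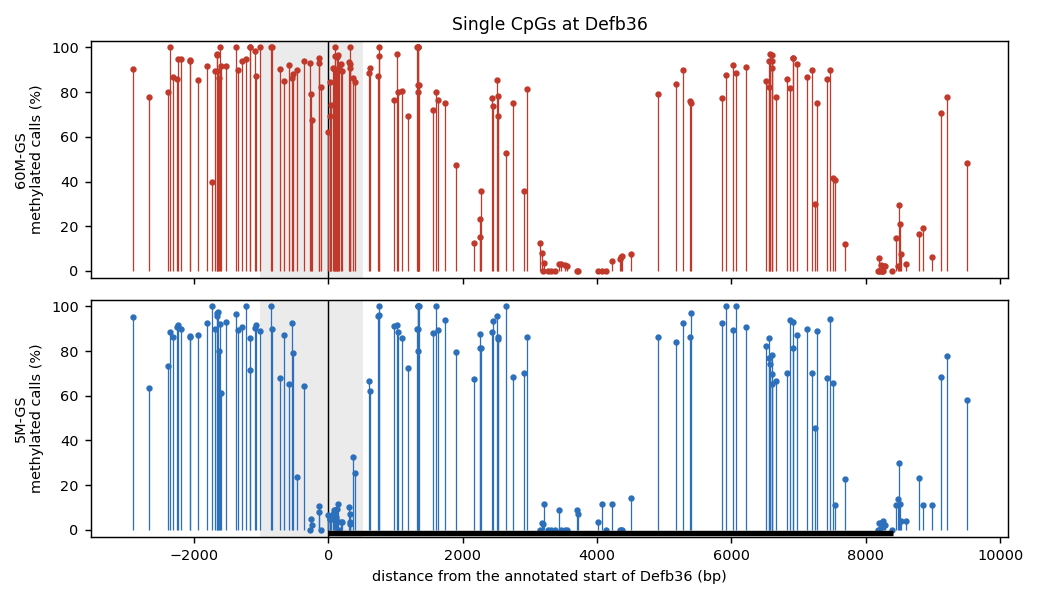
Methylation of single CpGs (y axis, percent of methylated calls) by distance in bp from the annotated start of Defb36 (x axis), with 60M-GS above and 5M-GS below, the 5' window shaded and the gene drawn as a black bar. In the window the level was 88.3% in 60M-GS against 23.0% in 5M-GS, while low stretches between 3501 and 8402 bp appear in both.

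The other chromosome 2 genes moved by under 5 points. Defb21 was higher, with 82.3% in 60M-GS against 77.8% in 5M-GS (adjusted exact p = 0.000736), but the difference was 0.625 points without flanks (adjusted exact p = 0.808) and 1.87 points with 5 kb flanks (adjusted exact p = 0.0687). Defb22, whose product is a sperm-coating beta-defensin, was lower, with 85.6% in 60M-GS against 88.4% in 5M-GS (adjusted exact p = 0.0125). Defb26 was lower as well, with 75.1% in 60M-GS against 79.0% in 5M-GS (adjusted exact p = 0.0367), a call that ended without flanks (adjusted exact p = 0.178). Of the others named by rule, none passed the test. Defb23 stood at 88.5% in 60M-GS against 87.6% in 5M-GS, and Defb25 at 79.2% in 60M-GS against 81.5% in 5M-GS. Defb19 stood at 88.4% in 60M-GS against 88.6% in 5M-GS. Defb29 had 56.3% in 60M-GS against 55.8% in 5M-GS (adjusted exact p = 0.872).

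At its start Defb29 was little methylated in both ages. Its 5' window had 19.8% of 814 calls methylated in 60M-GS against 12.3% of 819 in 5M-GS over 27 CpGs, the lowest level of the tested defensin windows in both ages. The difference of 7.45 points (3.89 to 11.0, adjusted exact p = 0.00044) is under the threshold, and 23 of the 27 CpGs were higher in 60M-GS. Outside the window, from -4000 to -1001 bp relative to the start, it was 85.7% in 60M-GS against 89.5% in 5M-GS. At the 5 CpGs capitalised in its sequence, the levels ran from 4.17% to 10.6% in 60M-GS against from 0 to 5.88% in 5M-GS.

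Beyond the defensin genes, the largest tile gains of the chromosome 2 stretch lay in H13. At its intronic gene Mcts2, known as an imprinted retrogene, the tile chr2:152687001-152688000 had 87.4% of 1147 calls in 60M-GS against 7.83% of 1187 in 5M-GS. The tile before it was at 89.0% in 60M-GS against 15.0% in 5M-GS. They lie 63948 and 62948 bp from Defb25. Losses were found at the lncRNA gene Gm39960, 10055 and 9055 bp from Defb23, where chr2:152448001-152449000 had 22.7% of 453 calls in 60M-GS against 68.3% of 341 in 5M-GS. The next tile was at 10.4% in 60M-GS against 51.6% in 5M-GS. In all 8 of 350 tiles gained (2.29%) and 5 lost (1.43%).

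On chromosome 14, 4 of the 5 defensin genes were lower in 60M-GS, 2 of them past the test, while a neighbouring pseudogene rose. Defb43 (chr14:63011771-63018088, 91 CpGs) had 72.9% of 2815 calls in 60M-GS against 80.6% of 2697 in 5M-GS, which differ by -7.71 points (-9.93 to -5.49, adjusted exact p = 1.04e-10). Defb30 had 63.4% in 60M-GS against 70.2% in 5M-GS, which differ by -6.79 points (adjusted exact p = 0.000179), which turned to 2.49 points with 5 kb flanks. Defb48 (88.9% in 60M-GS, 90.8% in 5M-GS), Defb47 (83.6% in 60M-GS, 85.6% in 5M-GS) and Defb42 (65.8% in 60M-GS, 64.5% in 5M-GS) did not pass. Defb42 is a beta-defensin of the epididymis. A tile inside Defb43 (chr14:63014001-63015000) lost methylation, at 24.2% of 318 calls in 60M-GS against 50.2% of 279 in 5M-GS. A second loss, 1913 bp past the gene, was at 58.5% in 60M-GS against 83.0% in 5M-GS. The third, 16395 bp from Defb42, was at 50% in 60M-GS against 71.4% in 5M-GS. Between Defb43 and Defb30 lies the pseudogene Gm19198, whose tile chr14:63025001-63026000 had 91.6% of 1177 calls in 60M-GS against 4.27% of 1008 in 5M-GS over 34 CpGs. This gain of 87.3 points was the largest of any tile in the 5 defensin clusters. The tile next to it was at 90.9% in 60M-GS against 48.5% in 5M-GS. Another gain, 18395 bp from Defb42 and outside any gene (chr14:63067001-63068000), was at 86.7% of 700 calls in 60M-GS against 14.9% of 763 in 5M-GS. In all, 8 of 251 tiles gained (3.19%) and 3 lost (1.20%).

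**Figure D4:**
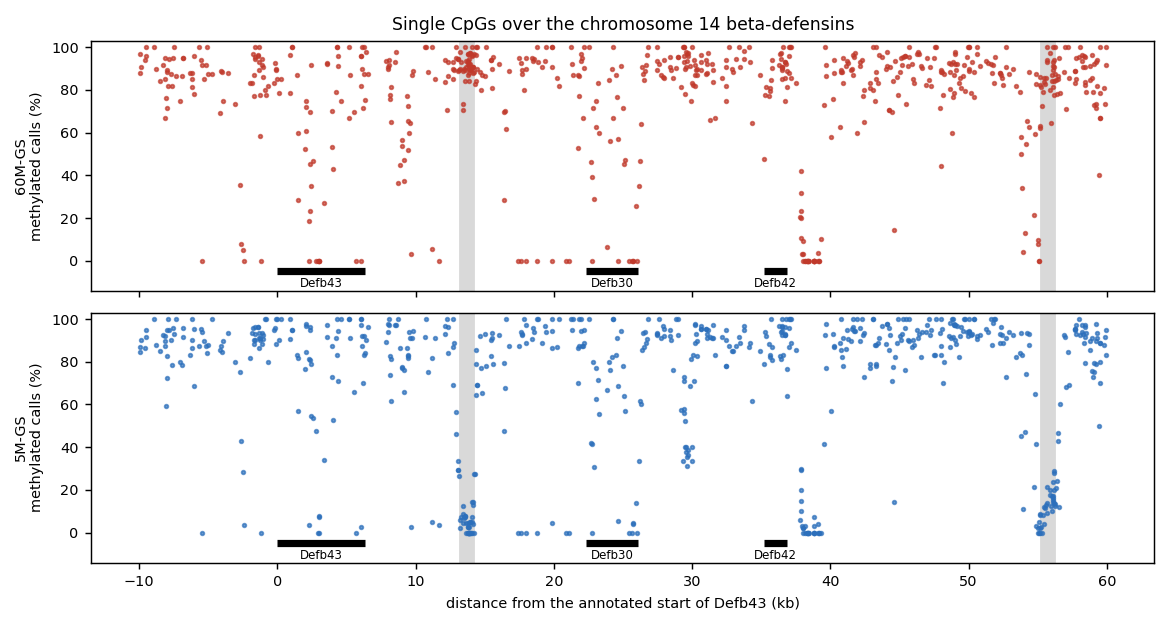
Methylation of single CpGs (y axis, percent of methylated calls) by distance in kb from the annotated start of Defb43 (x axis), with 60M-GS above and 5M-GS below, genes as black bars and the 2 tiles of largest gain shaded. The shaded tiles are at 91.6% and 86.7% in 60M-GS against at 4.27% and 14.9% in 5M-GS, while CpGs inside Defb43 reach lower levels in 60M-GS.

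In the proximal chromosome 8 cluster, Defb14, an inducible epithelial beta-defensin, was higher, with 72.2% of 5840 calls in 60M-GS against 68.0% of 5766 in 5M-GS over 239 CpGs (4.22 points, adjusted exact p = 3.58e-06). It held 2 gained tiles side by side. One (chr8:19188001-19189000) was at 88.8% in 60M-GS against 40.2% in 5M-GS, the other at 93.6% in 60M-GS against 60.3% in 5M-GS. The weaker one lies inside both Defb14 and the lncRNA gene Gm39139, which cannot be told apart there, and the stronger one lies mostly beyond Gm39139, in Defb14 alone. Defb34 was lower, with 82.8% in 60M-GS against 87.2% in 5M-GS (adjusted exact p = 0.0376), but without flanks it was 8.63 points higher. A tile that lost methylation 461 bp from the gene was at 61.0% in 60M-GS against 81.8% in 5M-GS. Defb4, an inducible beta-defensin, had 83.2% in 60M-GS against 85.8% in 5M-GS, Defb5 had 59.1% in 60M-GS against 63.2% in 5M-GS, and Defb6 had 90.1% in 60M-GS against 87.6% in 5M-GS. None of the 3 passed. The alpha-defensin pseudogenes did not pass either: Defa-ps12 stood at 86.6% in 60M-GS against 83.1% in 5M-GS, Defa-ps14 at 54.7% in 60M-GS against 52.3% in 5M-GS, and Defa-ps15, with 4 CpGs, at 62.8% in 60M-GS against 52.9% in 5M-GS. The largest tile gains were in the pseudogene Gm15366, 10433 and 11433 bp from Defb38. The better covered (chr8:19037001-19038000, 16 CpGs) had 78.5% of 553 calls in 60M-GS against 14.9% of 592 in 5M-GS, and the other, with 4 CpGs, was at 79.3% in 60M-GS against 15.3% in 5M-GS. The largest losses were 55914 and 56914 bp from Defb40, outside genes, at 1.99% in 60M-GS against 36.4% in 5M-GS and at 43.2% in 60M-GS against 70.8% in 5M-GS. In all, 14 of 345 tiles gained (4.06%) and 3 lost (0.870%).

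In the distal chromosome 8 cluster Defa-ps8 was the one defensin gene that gained methylation. Although its symbol marks a pseudogene, it is annotated as protein-coding (chr8:21270693-21272018). It had 81.6% of 244 calls in 60M-GS against 44.8% of 252 in 5M-GS over 11 CpGs, a gain of 36.7 points (28.6 to 44.1, adjusted exact p = 1.11e-16). Of these CpGs, 8 lie in the tile chr8:21272001-21273000, mostly past the gene's end, which was at 77.9% of 163 calls in 60M-GS against 31.8% of 173 in 5M-GS. The call was lost with divided calls (adjusted exact p = 1), and without flanks too few CpGs were left for a test. The values of the other named alpha-defensins rest on 4 to 22 CpGs and none passed. Defa35 stood at 38.8% of 49 calls in 60M-GS against 26.7% of 45 in 5M-GS, the lowest level among the tested alpha-defensins in both ages. Defa28, not tested with its 2 CpGs, had 9.43% of 53 calls in 60M-GS against 5.88% of 34 in 5M-GS. Of the tested alpha-defensins Defa30 was highest in 5M-GS, with 92.6% of 27 calls in 60M-GS against 92.9% of 28 in 5M-GS. Defa5 had 64.8% of 105 calls in 60M-GS against 79.7% of 79 in 5M-GS, which differ by -15.0 points (adjusted exact p = 0.0736). Defa26 had 64.7% in 60M-GS against 77.4% in 5M-GS (adjusted exact p = 0.0520). Defa34 had 83.1% in 60M-GS against 89.2% in 5M-GS, Defa38 had 76.5% in 60M-GS against 69.5% in 5M-GS, and Defa24, a cryptdin gene, had 79.6% in 60M-GS against 81.0% in 5M-GS. The 10 beta-defensins of the cluster were at 86.1% in 60M-GS against 86.6% in 5M-GS together. Defb1, a constitutively expressed epithelial beta-defensin, was lower, with 80.7% of 1664 calls in 60M-GS against 85.1% of 1645 in 5M-GS (-4.40 points, adjusted exact p = 0.00301). Defb15 was lower too, with 88.1% in 60M-GS against 92.3% in 5M-GS (adjusted exact p = 0.00644), a call that ended without flanks (adjusted exact p = 0.207). The largest tile gain of the stretch, chr8:22013001-22014000 in the copper transporter gene Atp7b, 64379 bp from Defb13, had 93.6% in 60M-GS against 26.8% in 5M-GS. A second tile of Atp7b was at 87.8% in 60M-GS against 37.6% in 5M-GS, and the tile chr8:20882001-20883000, 9667 bp from Defb33, at 88.7% in 60M-GS against 37.1% in 5M-GS. The sole loss, of 5 CpGs 42278 bp from Defb33 (chr8:20940001-20941000), was at 0 of 84 calls in 60M-GS against 29.7% of 91 in 5M-GS. In all, 14 of 308 tiles gained (4.55%) and 1 lost (0.325%).

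Over all clusters, 54 of 1366 tiles gained methylation (3.95%) and 12 lost it (0.878%), beside backgrounds of 3.48% and 0.475%. Of the 323 tiles that overlap a defensin span with its flanks, 12 gained (3.72%) and 4 lost (1.24%). Outside these spans 42 of 1043 gained (4.03%) and 8 lost (0.767%). The share gained over the clusters was thus near the background. With calls divided by the number of CpGs, 11 tiles gained and 0 lost, against 0.498% and 0.0155% of all tiles in that setting.

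At annotated 5' ends, 22 windows of beta-defensin genes had enough CpGs, out of 46 starts of 45 genes. The alpha-defensins had 16 starts and none could be tested. The gain at Defb36 was the single one and 0 were lost, against backgrounds of 4.34% and 0.528% over 30655 windows. The tested defensin windows were mostly methylated, with a median of 83.6% in 60M-GS against 83.1% in 5M-GS, while all windows had medians of 15.4% in 60M-GS against 12.3% in 5M-GS. Of the 22 windows, 14 were above 75% in both ages. With no minimum difference, 4 were higher at an adjusted p under 0.05 (Defb36, Defb29, Defb21 and Defb39) and 3 were lower (Defb7, Defb43 and Defb42), with backgrounds of 15.2% and 5.16%. With divided calls Defb36 alone of these 7 passed, and the other 6 had an adjusted exact p of 1. At the first of its starts Defb21 had 63.9% of 571 calls in 60M-GS against 52.0% of 612 in 5M-GS (adjusted exact p = 0.000336). Defb39 had 89.8% of 166 calls in 60M-GS against 78.4% of 153 in 5M-GS (adjusted exact p = 0.0423). Defb43 had 84.5% of 213 calls in 60M-GS against 93.5% of 185 in 5M-GS (adjusted exact p = 0.0341). Defb42 had 77.1% of 249 calls in 60M-GS against 87.8% of 221 in 5M-GS (adjusted exact p = 0.0157). Defb7, with 5 CpGs, had 80.7% of 88 calls in 60M-GS against 93.5% of 124 in 5M-GS (adjusted exact p = 0.0280), which turned to 3.46 points in the window from 2000 bp before to 1000 bp after the start. In that window the calls of Defb29 (adjusted exact p = 0.263), Defb39 (0.202) and Defb42 (0.581) ended too. In a window of 500 bp on each side those of Defb21 (adjusted exact p = 0.569), Defb39 (0.319) and Defb43 (0.0759) ended. Defb43 also missed the test at a minimum of 10 calls per CpG (adjusted exact p = 0.145).

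In windows of 100 kb the clusters were mostly level. Of 33 windows over the clusters, 27 held the 100 usable CpGs required, and 1 was higher in 60M-GS by 10 points or more. It was the window with all 3 chromosome 1 genes (chr1:18200001-18300000), at 86.2% in 60M-GS against 76.0% in 5M-GS, 10.2 points higher (8.99 to 11.5). Windows past 10 points made up 6.38% of all windows of chromosomes 1 to 19 and X. Among autosomal windows alone, the chromosome 1 window stood at percentile 95.1. Of all 25241 windows, 0 fell by that much. When windows were shifted by 50 kb the count was 0. The next largest, with Defb38 and Defb39 (chr8:19000001-19100000), was at 83.5% in 60M-GS against 73.7% in 5M-GS, which differ by 9.85 points. The window of Defb36 and Defb25 (chr2:152600001-152700000) was at 63.8% in 60M-GS against 57.0% in 5M-GS, and also holds Mcts2. The 6 windows left out all lie in the distal chromosome 8 cluster, with 12 to 97 usable CpGs against a median of 646 in autosomal windows.

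**Figure D5:**
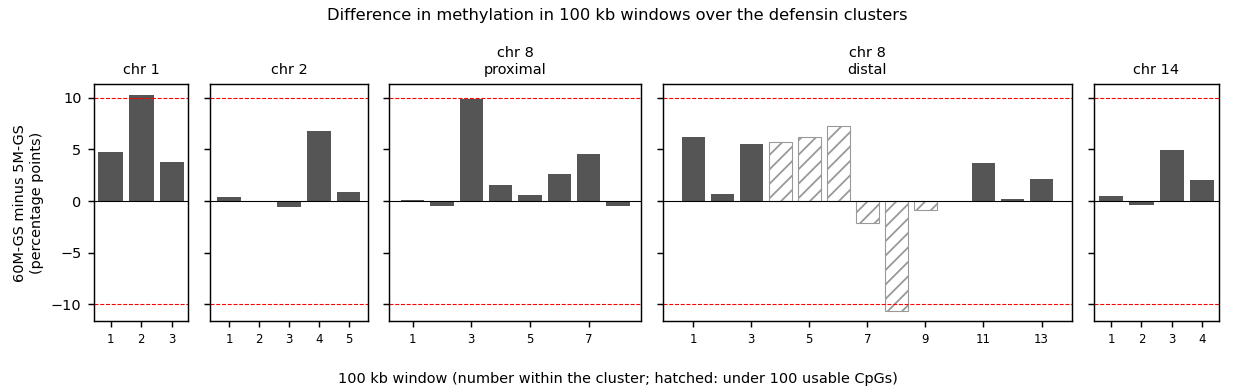
Difference in methylation, 60M-GS minus 5M-GS in percentage points (y axis), in consecutive 100 kb windows over each cluster (x axis), with dashed lines at 10 points either way and hatching where fewer than 100 CpGs could be used. The second chromosome 1 window alone passes the line among usable windows, at 10.2 points, and no usable window lies below -0.559.

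A list of 39 genes tied to antimicrobial defence gave a comparison. It also holds genes that do not encode antimicrobial peptides, such as the protease gene Mmp7 and the receptor genes Ccr6 and Mc1r. All 39 were tested, and 2 gained methylation (5.13%) and 0 lost it, beside the gene backgrounds of 4.35% and 0.0502%. Camp, which encodes the cathelicidin precursor, had 89.1% of 2170 calls in 60M-GS against 45.3% of 2302 in 5M-GS, a gain of 43.9 points (adjusted exact p = 1.76e-224). Wfdc15a, of the whey acidic protein domain family, had 88.6% of 1392 calls in 60M-GS against 46.5% of 1612 in 5M-GS, a gain of 42.1 points (adjusted exact p = 5.38e-138). The list's median difference was -0.19 points. At an adjusted p under 0.05, 14 genes were higher (35.9%) and 9 lower (23.1%), against backgrounds of 28.1% and 13.2%. The 9 lower genes include Mc1r (-6.39 points) and Ccr6 (-6.00 points). Within the cluster stretches, 73 other genes are annotated and 65 were tested. Of these, 5 (Gm19198, Mcts2, Gm15313, Gm15366 and Gm39139) gained methylation (7.69%) while 1 (Gm39960) lost it (1.54%). The backgrounds over all tested genes were 4.35% and 0.0502%. Gm15313 rests on 4 CpGs, with 84.3% of 51 calls in 60M-GS against 63.2% of 57 in 5M-GS. Gm19198 stood at 90.0% in 60M-GS against 31.8% in 5M-GS, and Gm39960 at 35.9% in 60M-GS against 67.7% in 5M-GS.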

How the data were processed

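DNA methylation was read by PBAT whole-genome bisulfite sequencing in 60M-GS and 5M-GS cells, 2 replicates each, per the labels. The submitters' processing notes name Bismark 0.10.0 and the build mm10. Filters, deduplication and the handling of reads that match several places: not given in the sources used here. The deposited tables give the count of methylated and of unmethylated calls per CpG, not normalized by the authors. A further column holds the authors' percent methylated, which served here to check the counts. Each table pools its replicates.

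Levels, Fisher's exact tests and Benjamini-Hochberg adjustment were computed from the counts with Python 3.11.15, numpy 2.4.6, scipy 1.17.1, pandas 2.3.3 and numba 0.67.0, and figures with matplotlib 3.10.9. Regions needed 4 CpGs, each covered 5 or more times in each table. Intervals are 95% Wilson and Newcombe intervals and cover counting error only, since calls on 1 read are not independent. The tests were tried on simulated data with independent calls, which cannot show how they behave where calls share a read. Gene spans came from the RefSeq annotation of GRCm38.p6, matched by symbol, and strands and 5' sequences of 45 of the 83 genes from its promoter table. Clusters are runs of defensin genes with gaps under 1 Mb, and tiles reach 100 kb beyond them.

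The genes and lists were chosen with earlier results of these data known. The genes named are those that gained or lost methylation, the 3 with the largest and the 3 with the smallest difference in each class and cluster, those of lowest and highest 5M-GS level, 9 known members, the called genes of the antimicrobial list, the 3 largest gains and losses among tiles of each cluster, and every window past 10 points. Other genes complete a small count or lie in those tiles. Alternatives were other call minima, flanks, thresholds, window positions, equal weight per CpG and divided calls. Those for 5' ends were chosen after seeing the data.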

Additional observations from a re-analysis of the deposited data

How the results depend on the processing

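No paired analysis was possible because each table pools its replicates, and for the same reason no replicate could be left out. Of the summary values recomputed under alternatives, 64 stayed the same or close and 20 moved. A count was held close when it was of similar size, such as 49 gained tiles at a minimum of 10 calls against 54 as reported. A difference in level was held close when it lay within the counting interval of the reported one. The cause was not tested beyond what each alternative changes. Gained defensin genes numbered 4 at a minimum of 10 points (Defb44-ps, Defb41, Defb36 and Defa-ps8), where 9.75% of all genes gained, and 0 with calls divided by the number of CpGs, where 0.105% of all genes did. Without flanks the 1 gained gene was Defb44-ps, and Defa-ps8 had too few CpGs for a test. Without flanks the differences were 2.24 points for beta-defensins, 16.7 for chromosome 1, -5.33 for chromosome 14, 3.66 for chromosome 2 and 2.60 for proximal chromosome 8. With 5 kb flanks they were 12.2 for chromosome 1, -0.904 for chromosome 14 and 1.79 for chromosome 2. Gained tiles numbered 11 with divided calls, 100 at 10 points and 28 at 30 points, against 0.498%, 5.48% and 2.02% of all tiles. Lost tiles numbered 0, 22 and 3 in the same settings, against 0.0155%, 1.66% and 0.141%. Windows past the limit numbered 0 when shifted by 50 kb and 5 at a limit of 5 points. At 10 points, 3 of the 22 tested 5' windows gained and 2 lost, against 7.07% and 2.23% of all windows. Single genes changed sign in 13 cases. Without flanks these were Defb42 (-3.33 points), Defb25 (2.45), Defb19 (0.618), Defa38 (-0.536), Defb34 (8.63), Defb6 (-2.46) and Defa24 (1.97). With 5 kb flanks they were Defa-ps15 (-6.06), Defb30 (2.49), Defb48 (3.94), Defb26 (0.667) and Defb19 (1.71), and in the window from 2000 bp upstream to 1000 bp downstream Defb7 (3.46). The lack of usable CpGs limits every statement on alpha-defensins.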
